A study of Mus musculus with 2 samples.

Results

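The clustered histone genes are the copies of the genes for histones H1, H2A, H2B, H3 and H4 that lie side by side in the Hist1, Hist2, Hist3 and Hist4 loci of the mouse genome. Here they were taken as every gene of the count tables whose symbol begins with Hist1h, Hist2h, Hist3h or Hist4h, without regard to its level. That gave 69 of the 28001 features, 6 for H1, 19 for H2A, 19 for H2B, 12 for H3 and 13 for H4. By symbol, 55 are Hist1 rows on chromosome 13, 11 Hist2 rows on chromosome 3, 2 Hist3 rows on chromosome 11 and 1 a Hist4 row on chromosome 6 (mm10). Of the 69 rows 67 are annotated as protein-coding and 1, of Hist2h2bb, as a lincRNA (a non-coding RNA). Hist1h2al is annotated as a processed pseudogene, and at chr13:51202727-51203065 it lies apart from the other Hist1 rows. Hist2h2bb is listed under 2 gene identifiers, so the 69 rows carry 68 symbols.

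The study profiled single cells of the dorsal and lateral cortex and the hippocampus of C57BL/6J mice at postnatal day 0. Of the libraries 1 came from wild-type animals and the other from Gmnc-/- littermates, which lack Gmnc on both alleles. Gmnc encodes a coiled-coil regulator of the multiciliated cell programme. A library was made from a pool of 4 animals that came from 2 litters, and the cells of single animals cannot be told apart. With 1 library per genotype no test of genotype can be made: every difference given here is between 2 libraries, and its interval (exact, 95%) covers counting error only.

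Clustered histone genes are the replication-dependent histone genes. A dividing cell must package newly made DNA, and it transcribes these genes mostly during S phase, when the nuclear protein NPAT drives them; their mRNAs are degraded once replication ends. Unlike other mRNAs they usually carry no poly(A) tail. They end a few bases past a short stem-loop, which is bound by SLBP, the stem-loop binding protein that serves in their processing, translation and decay. Replacement histones such as H3f3b and H2afz are encoded elsewhere, have poly(A) tails and are used outside S phase as well. In the brain at birth the dividing cells are mainly the glial and neuronal progenitors of the germinal zones, while neurons have left the cycle.

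The libraries were primed on poly(A), so the level of a member is that of the molecules such priming catches, and the order of members is not the order of their mRNA amounts. The stem-loop was therefore sought in the annotated transcripts, on the transcript strand, as GG, any 2 bases, CTTTT, any base, AG, any 2 bases and CC. It was found in 44 of the 69 members and in 89 of 55450 annotated genes, members included (0.1605%). By transcript it was in 124 of 141767 (0.0875%). The same 16 letters stood in 26 members, and 2 further forms stood in 7 and 6. These 3 forms are printed because the element is what sets the mRNAs of these genes apart.
Form of 26 members: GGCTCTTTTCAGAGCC
Form of 7 members: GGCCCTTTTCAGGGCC
Form of 6 members: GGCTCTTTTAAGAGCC
The annotated transcript ended within 100 bases of the stem-loop in 22 members and ran further past it in 22, and in 25 no stem-loop was found in the annotated transcript. In Hist1h2ap and its neighbour Hist1h2ao a run of 12 A stands directly before the stem-loop. A run of at least 12 A at any place was in 5768 of 141767 annotated transcripts (4.07%). Hist1h2ac has a longest run of 15 A, not directly before its stem-loop, and a Gmnc-/- to wild-type ratio of 0.513. Whether such a run bears on a member's level was not tested. Hist1h2ap is shown because it had the largest log2 difference between the libraries of all members (stem-loop in capitals).
Hist1h2ap: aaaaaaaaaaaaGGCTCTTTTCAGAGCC

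The members' promoters were read from RefSeq (GRCm38.p6), as 250 bases before to 50 after each start, with 63 entries for members. Each was searched on both strands for CCAAT, for TATAAA and for the octamer ATTTGCAT, which do not overlap one another in sequence. CCAAT was present in 54 of 63 members' promoters (85.7%) and in 37.4% of 32851 promoters of all genes, TATAAA in 55.6% against 13.6%, and the octamer in 22.2% against 1.74%. All 14 promoters with the octamer were of H2A or H2B genes, 7 of each. Windows of neighbours on opposite strands can overlap, so 1 octamer can be counted for both genes. This was so for Hist1h2ae (chr13:23571171-23571470) and Hist1h2bg (chr13:23571150-23571449). CCAAT was in every H1, H2A, H2B and H3 promoter and in 3 of 12 H4 promoters. The 120 bases before the start are printed for the member with the most UMIs (Hist1h1b, chr13:21780626-21780745, minus strand) and the leading H4 member (Hist1h4d, chr13:23581448-23581567, plus strand). They are also printed for the Hist3 pair, which was higher in non-cycling cells pooled over classes (Hist3h2ba, chr11:58948791-58948910, and Hist3h2a, chr11:58954565-58954684, both plus strand). Capitals mark the motifs, except that TATAAA on the other strand (TTTATA) is left in lower case, as in Hist3h2ba.
Hist1h1b: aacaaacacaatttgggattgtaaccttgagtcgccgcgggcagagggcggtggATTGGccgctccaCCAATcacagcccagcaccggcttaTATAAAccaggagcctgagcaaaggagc
Hist1h4d: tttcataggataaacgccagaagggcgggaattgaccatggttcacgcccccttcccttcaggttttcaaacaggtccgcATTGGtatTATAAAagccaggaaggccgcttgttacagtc
Hist3h2ba: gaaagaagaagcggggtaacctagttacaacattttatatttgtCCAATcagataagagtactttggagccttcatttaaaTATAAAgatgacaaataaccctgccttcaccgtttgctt
Hist3h2a: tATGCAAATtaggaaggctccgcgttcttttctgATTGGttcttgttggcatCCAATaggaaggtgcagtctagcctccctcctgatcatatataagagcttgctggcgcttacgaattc
A match describes letters in these windows and not a bound site.

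After filtering, 10566 wild-type and 20293 Gmnc-/- cells remained, with medians of 6023 and 4440 UMIs (unique molecules). A doublet caller had removed 3.4% of the wild-type and 22.5% of the Gmnc-/- cells, and 51 cell barcodes occurred in both libraries. The cells formed 36 clusters, named by fixed markers without use of the members. A cell with a UMI of Mki67 or Top2a, which dividing cells express, was called cycling, and any other cell non-cycling. That gave 2508 cycling cells (23.7%) in wild-type and 4972 (24.5%) in Gmnc-/- cells, and 18.2% and 19.1% after every cell was thinned to 2000 UMIs. The median depth was 10540 UMIs in cycling and 5126 in non-cycling wild-type cells, and 6049 and 4043 in the Gmnc-/- library. Gmnc-/- cells held no ependymal-like cluster, against 132 such cells in the wild-type library.

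The member UMIs numbered 147634 among wild-type and 118310 among Gmnc-/- cells, which is 0.185% and 0.116% of all UMIs. A few genes made up most of this signal. In the wild-type library the 7 members with the most UMIs, Hist1h1b, Hist1h4d, Hist1h1e, Hist1h2ap, Hist1h2ae, Hist3h2ba and Hist1h2bc, held 69.8% of it; in the Gmnc-/- library the first 7 held 69.2%, with Hist1h1c in the place of Hist1h2bc. Hist1h1b, which encodes the linker histone H1.5, alone held 16.8% and 17.6%. At the other end, 6 members had fewer than 10 UMIs over both libraries, and Hist1h2ba, Hist1h2bq and Hist1h2br had 0. Many members are close copies of each other: in 31 of the 69, at least 50% of the 60-base windows of the transcript also occur in another gene's transcript, with 96.8% for Hist1h2bq, 93.3% for Hist1h2ao and 92.9% for Hist1h2ap, and 0% for Hist1h1b, Hist3h2ba and Hist4h4. The levels of such copies, Hist1h2ap among them, are uncertain, since reads that fit several genes could be lost or split by the authors' counting.

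Summed over members, cycling cells stood well above non-cycling cells in both libraries. The wild-type library had 3828 CPM (UMIs of the members per 1000000 UMIs; interval 3806 to 3850) in cycling and 657 (650 to 664) in non-cycling cells, a ratio of 5.83 (5.75 to 5.90). The Gmnc-/- library had 2530 CPM (2513 to 2547) against 489 (484 to 495), a ratio of 5.17 (5.11 to 5.24). Of the member UMIs, 77.7% lay in cycling cells in the wild-type library and 71.8% did in the Gmnc-/- library. For single genes a difference is given as log2 of CPM plus 5, and it is counted when it passes 2-fold in a gene with at least 10 UMIs over the cells compared. Of 63 members measured in the wild-type library 37 were at least 2-fold higher in cycling cells, where 3.57% of all genes were, with a median log2 difference of 1.26 over members and 0.00 over all genes. In the Gmnc-/- library 31 of 62 were, with a background of 2.18% and a median of 1.01. The 31 were counted in both libraries, where the background was 2.14%. No member was 2-fold lower, against 1.94% and 1.17% of all genes.

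**Figure D1:**
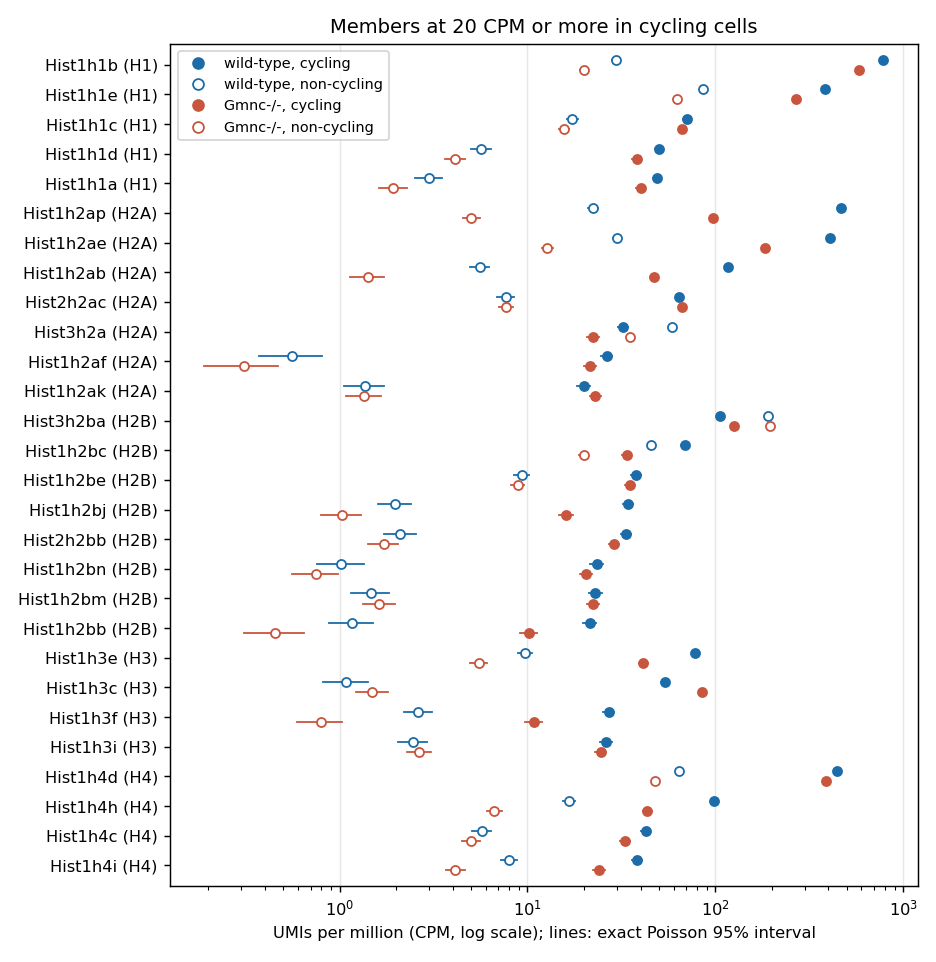
Level of the 28 members at 20 CPM or more in cycling cells of either library, on a log axis of CPM, with filled points for cycling and open points for non-cycling cells, blue for the wild-type and red for the Gmnc-/- library; lines are exact Poisson 95% intervals. Filled points lie to the right of open ones in every row but those of Hist3h2a and Hist3h2ba.

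Among the linker histones all 5 measured H1 members were more than 2-fold higher in cycling cells of both libraries. Hist1h1b had 779 CPM in cycling and 29.5 in non-cycling wild-type cells, and 579 against 19.99 in the Gmnc-/- library. Its ratios of 26.4 and 29.0 lay close together although its level was lower in the Gmnc-/- cells of either state. Hist1h1e (H1.4) went from 86.0 CPM in non-cycling to 384 CPM in cycling wild-type cells and from 62.4 to 269 CPM in the Gmnc-/- library. Its ratio of 4.46 in the wild-type library was well under that of Hist1h1b, and in non-cycling cells it was the higher of the pair. Hist1h1c (H1.2) had 70.3 against 17.3 CPM and 66.6 against 15.7 CPM. Hist1h1d (H1.3) had 50.2 against 5.66 CPM and 38.1 against 4.12 CPM. Hist1h1a (H1.1) had 49.0 against 2.98 CPM and 40.1 against 1.94 CPM. Hist1h1t, the testis H1, gave 5 and 3 UMIs.

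Pooled over classes, H2A members split into strongly cycling genes of Hist1 and the opposite Hist3h2a. Of 17 measured, 11 were at least 2-fold higher in cycling cells of the wild-type library. Hist1h2ap had 465 CPM in cycling and 22.4 in non-cycling wild-type cells, and 97.3 against 5.03 CPM in the Gmnc-/- library. Hist1h2ae had 407 against 29.9 CPM and 183 against 12.8 CPM. Hist1h2ab had 117 against 5.56 CPM and 47.1 against 1.41 CPM. For these 3 the cycling cells of each library were 13.6-fold or more above its non-cycling cells, while the level itself was lower in the Gmnc-/- library. Hist2h2ac of the Hist2 locus had 64.3 against 7.66 CPM and 66.8 against 7.72 CPM, nearly the same in both libraries. Hist1h2af, at 26.4 against 0.560 CPM in the wild-type library, was almost only in cycling cells.

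H2B members had the weakest summed rise, 386 against 259 CPM in wild-type and 322 against 235 CPM in Gmnc-/- cells. Hist3h2ba, the H2B member with the most UMIs, moved the other way when all classes were pooled. Most other H2B genes followed the cycle. Hist1h2be had 37.8 against 9.30 CPM and 35.2 against 8.88 CPM. Hist1h2bj had 34.4 against 1.98 CPM and 15.97 against 1.03 CPM. Hist1h2bn, Hist1h2bm and Hist1h2bb lay between 21.5 and 23.4 CPM in cycling and between 1.02 and 1.46 CPM in non-cycling wild-type cells. Hist1h2bc kept a high level outside the cycle, with 68.6 CPM in cycling and 45.6 in non-cycling wild-type cells and 33.8 against 19.9 CPM in the Gmnc-/- library, and did not pass 2-fold in either.

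H3 members had the steepest summed rise of the core histones, 228 against 20.4 CPM (ratio 11.2) in wild-type and 187 against 13.5 CPM (13.8) in Gmnc-/- cells. Hist1h3e had 78.1 against 9.70 CPM and 41.4 against 5.5 CPM. Hist1h3c had 53.7 against 1.08 CPM in wild-type and 85.0 against 1.5 CPM in Gmnc-/- cells, ratios of 49.8 and 56.8. It was 1 of the few members at a higher level in the Gmnc-/- cells. Hist1h3f had 27.1 against 2.62 CPM and 10.8 against 0.792 CPM, and Hist1h3i 26.3 against 2.46 CPM and 24.6 against 2.65 CPM. H4 members summed to 673 against 102 CPM and 511 against 67.5 CPM. Hist1h4d supplied most of that, with 445 against 64.2 CPM and 386 against 47.9 CPM. Hist1h4h had 98.4 against 16.6 CPM and 43.5 against 6.65 CPM. Hist1h4c and Hist1h4i lay between 24.1 and 42.7 CPM in cycling cells and between 4.13 and 7.998 CPM in non-cycling cells of both libraries. The single Hist4 gene, Hist4h4, reached 3.60 CPM in cycling wild-type cells. The 41 members under 20 CPM in cycling cells of both libraries mostly had the same direction: over all measured members the ratio's interval lay above 1 for 60 of 63 in wild-type and 58 of 62 in Gmnc-/- cells.

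Hist3h2ba and Hist3h2a, neighbours in the Hist3 locus (chr11:58948920-58949533 and chr11:58954685-58956830), were the only members whose interval lay below 1, in both libraries. Hist3h2ba had 106 CPM in cycling and 191 CPM in non-cycling wild-type cells (ratio 0.557, log2 -0.82), and 126 against 196 CPM in the Gmnc-/- library (0.644, log2 -0.62). Hist3h2a had 32.3 against 58.7 CPM (0.551) and 22.3 against 35.3 CPM (0.630). Neither passed 2-fold on the log2 scale. These ratios pool all cell classes, and for Hist3h2ba the direction differed between classes. The cycling interneuron-like cluster had 167 and 153 CPM in wild-type and Gmnc-/- cells, against 322 and 322 CPM in non-cycling interneuron-like cells. For intermediate progenitor-like cells this was 145 and 117 CPM against 270 and 228 CPM. The cycling astroglia-like cluster had 77.5 and 80.8 CPM, above the non-cycling astroglia-like cells of each library (given below). Both transcripts carry the stem-loop but are annotated past it, by 169 bases in Hist3h2ba and 1643 in Hist3h2a.

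The cell's position in the cycle was read from the UMIs of 21 replication genes (among them Pcna, the Mcm genes and Rrm2). The UMIs of 17 mitosis genes (among them Ccnb1, Cdc20 and Aurkb) were read too. Both lists were counted after every cell was thinned to 2000 UMIs, and cells with fewer UMIs were left out. Within cycling wild-type cells the summed members rose from 1148 CPM in the 584 cells with no replication UMI to 7379 CPM in the 519 cells with 6 or more. In the Gmnc-/- library they rose from 820 to 4775 CPM at 5 replication UMIs and were 4509 CPM at 6 or more. Hist1h1b went from 121 to 1812 CPM in wild-type and from 93.9 to 1293 CPM in Gmnc-/- cells over the same cells. Hist1h2bc fell over these bins, from 100 to 35.9 CPM in wild-type and from 41.4 to 19.1 CPM in Gmnc-/- cells, and Hist3h2ba stayed between 87.5 and 128 CPM in the wild-type library. In the Gmnc-/- library Hist3h2ba went from 150.4 CPM with no replication UMI to 88.2 CPM with 6 or more. Thinning gave every cell the same depth for these list counts. The cycling state and the CPM were read from all UMIs of a cell, whose median was not held fixed between bins.

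**Figure D2:**
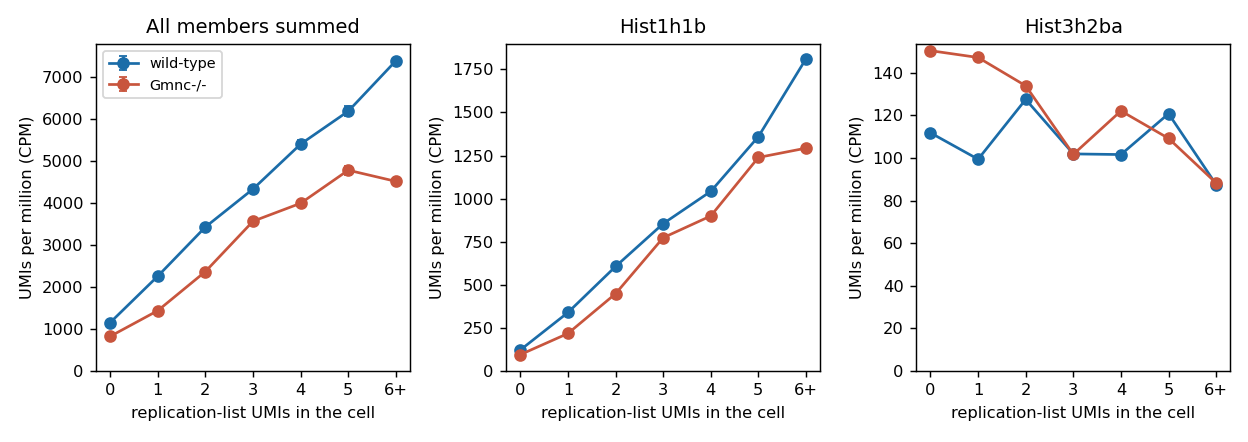
Cycling cells are grouped by their UMIs of the replication list after thinning (x axis, 0 to 6 or more). The y axes give CPM for all members summed (with exact Poisson 95% intervals), Hist1h1b and Hist3h2ba. Blue is the wild-type and red the Gmnc-/- library. The sum and Hist1h1b climb along the axis, to 7379 and 1812 CPM in the wild-type library, while Hist3h2ba does not.

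Members were highest where both lists were present. In cycling wild-type cells with at least 4 UMIs of each list they reached 8932 CPM, against 3045 CPM with at least 4 replication but fewer mitosis UMIs, 3865 CPM with at least 4 mitosis but fewer replication UMIs and 808 CPM with fewer of both. The same order held in the Gmnc-/- library, at 6060, 1977, 3009 and 603 CPM. Hist1h1b had 2034, 797, 678 and 78.4 CPM in wild-type and 1610, 585, 590 and 51.2 CPM in Gmnc-/- cells. The second group was thus above the third in wild-type and not in Gmnc-/- cells. Both groups can hold some UMIs of the other list. Over cycling and non-cycling cells together, at least 2 replication and 0 mitosis UMIs gave Hist1h1b 90.5 and 75.4 CPM in the 2 libraries. With at least 2 mitosis and 0 replication UMIs it was higher, at 202 and 223 CPM. The summed members had 801 and 609.5 CPM in the former cells and 1597 and 1393 CPM in the latter. Among the cycling groups Hist1h2bc was lowest with at least 4 replication but fewer mitosis UMIs, at 25.8 CPM in wild-type and 15.1 CPM in Gmnc-/- cells. It had 90.0 CPM with fewer of both and 77.3 CPM with at least 4 mitosis but fewer replication UMIs in the wild-type library. In the Gmnc-/- library it had 37.9 and 43.4 CPM, so the order of these groups was the other way round.

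Among cell classes the dividing progenitors held most of the signal. The 3 clusters in which 99.2% to 100% of the cells were cycling, 1 each of the interneuron-like, astroglia-like and intermediate progenitor-like classes, made up 9.72% of the wild-type and 9.67% of the Gmnc-/- cells and held 59.1% and 58.7% of the member UMIs. Their levels were 7356, 6004 and 5852 CPM in wild-type and 4823, 3926 and 4686 CPM in Gmnc-/- cells. Cycling interneuron-like cells as a class stood at 6726 and 3993 CPM against 849 and 618 CPM in non-cycling ones. Cycling intermediate progenitor-like cells stood at 4701 and 3588 CPM against 864 and 623 CPM, and astroglia-like cells (radial glia and astrocytes share these markers) at 4066 and 2479 CPM against 711 and 510 CPM. Hist1h1b was the leading member in each of these cycling classes in the wild-type library, at 1367, 1134 and 845 CPM.

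Outside the neural progenitors the members were also higher in cycling cells. Cycling microglia-like cells had 1966 and 1273 CPM against 430 and 313 CPM in non-cycling ones. Cycling endothelial-like cells had 860 and 714 CPM against 381 and 306 CPM, and erythroid-like cells 1165 and 1067 CPM against 228 and 172 CPM. Oligodendrocyte lineage-like cells had 2428 CPM against 649 CPM in the wild-type library, a ratio of 3.74, and 895 against 479 CPM in the Gmnc-/- library, a ratio of 1.87. Mural-like cells had 15 and 7 cycling cells, too few in the Gmnc-/- library (12 member UMIs) for the ratio of 1.52 (0.699 to 3.12) to be told from 1.

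In neurons a Mki67 or Top2a UMI went with little or no rise of the members. Excitatory neuron-like cells with such a UMI had 813 CPM against 601 CPM in the wild-type (ratio 1.35) and 451 against 433 CPM in the Gmnc-/- library (1.04, 0.985 to 1.10), and striatal neuron-like cells had ratios of 1.05 (0.861 to 1.28) and 1.01 (0.896 to 1.13). The share of excitatory neuron-like cells with the UMI, 6.40% and 10.7% at medians of 5257 and 4203 UMIs, stood beside 10.9% and 13.1% of erythroid-like cells at 4316 and 3352 UMIs. Since the members were higher in erythroid-like cells with the UMI, that share is not a background rate, and the part of free RNA in either share was not tested.

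Ependymal-like cells, found only in the wild-type library, stood apart. Of the 132 cells 117 (88.6%) had a Mki67 or Top2a UMI, at a median of 17290 UMIs, and after thinning 74.6% (65.6% to 82.3%) of 114 cells still did, against 4.53% of erythroid-like cells. Yet the members summed to only 654 CPM (622 to 688) in those 117 cells and to 943 CPM (769 to 1144) in the other 15, a ratio of 0.694 (0.568 to 0.857). The class had 748 CPM of Top2a and 43.7 CPM of Mki67, where the cycling astroglia-like cluster had 1427 and 560 CPM. It had 61 CPM of Hist1h1b against 1282 CPM there. Its leading member was Hist1h2bc, at 109 CPM (95.6 to 123) in the cells with the UMI and 268 CPM in the 15 without.

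**Figure D3:**
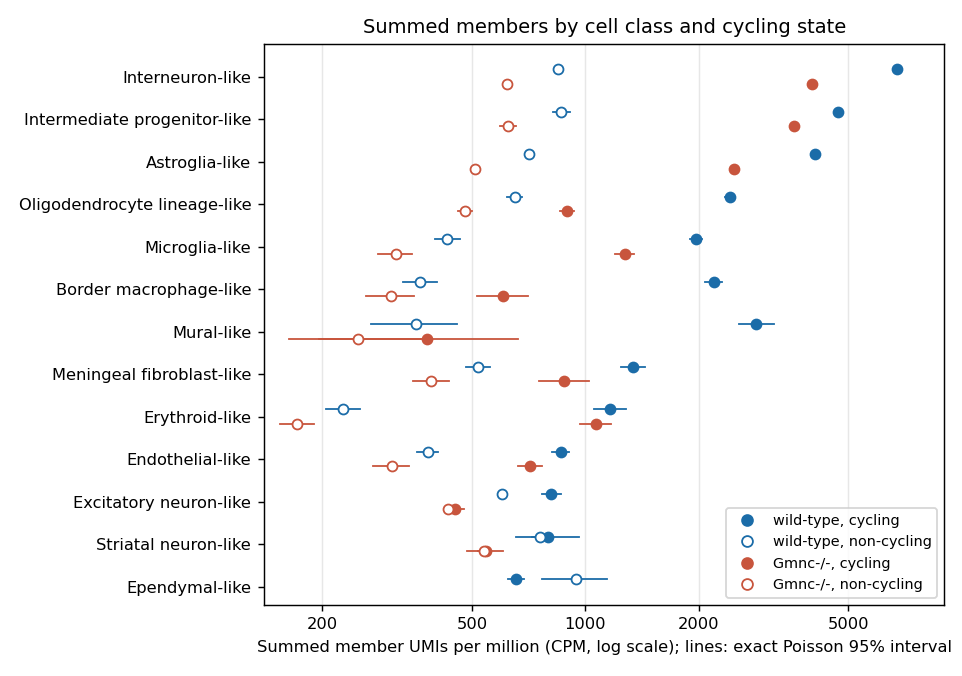
Summed members in CPM on a log axis for 13 cell classes, with filled points for cycling and open points for non-cycling cells, blue for the wild-type and red for the Gmnc-/- library; lines are exact Poisson 95% intervals. In the progenitor classes filled points stand above 2000 CPM and open ones under 900 CPM. Filled and open points nearly coincide in striatal neuron-like cells and in excitatory neuron-like cells of the Gmnc-/- library. In wild-type excitatory neuron-like cells they stand at 813 and 601 CPM. In ependymal-like cells the filled point is the lower one.

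Without cycling cells the picture was set by other members. Hist3h2ba was the highest member of non-cycling neurons. It had 337 CPM in striatal neuron-like, 322 in interneuron-like, 273 in excitatory neuron-like and 270 in intermediate progenitor-like cells of the wild-type library, then 142 in oligodendrocyte lineage-like and 64.2 in astroglia-like cells, with 26.5 in microglia-like and 19.9 in endothelial-like cells. The intervals of neighbours overlapped for striatal neuron-like and interneuron-like cells and for excitatory neuron-like and intermediate progenitor-like cells. The Gmnc-/- library gave the same order of the neural classes, at 311, 322, 237, 228, 114 and 59.2 CPM, but for the first pair. Erythroid-like cells had 42.0 and 54.3 CPM. Hist3h2a had the same neuronal bias at a lower level, 69.1, 85.0 and 68.5 CPM in the 3 neuron classes against 37.5 CPM in astroglia-like cells of the wild-type library. Hist1h2bc had the reverse order, 143 CPM in meningeal fibroblast-like, 133 in microglia-like, 90.1 in border macrophage-like and 70.9 in astroglia-like cells against 17.9 in excitatory neuron-like cells, with 63.2, 63.6, 44.6, 36.9 and 8.78 CPM in the Gmnc-/- library.

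**Figure D4:**
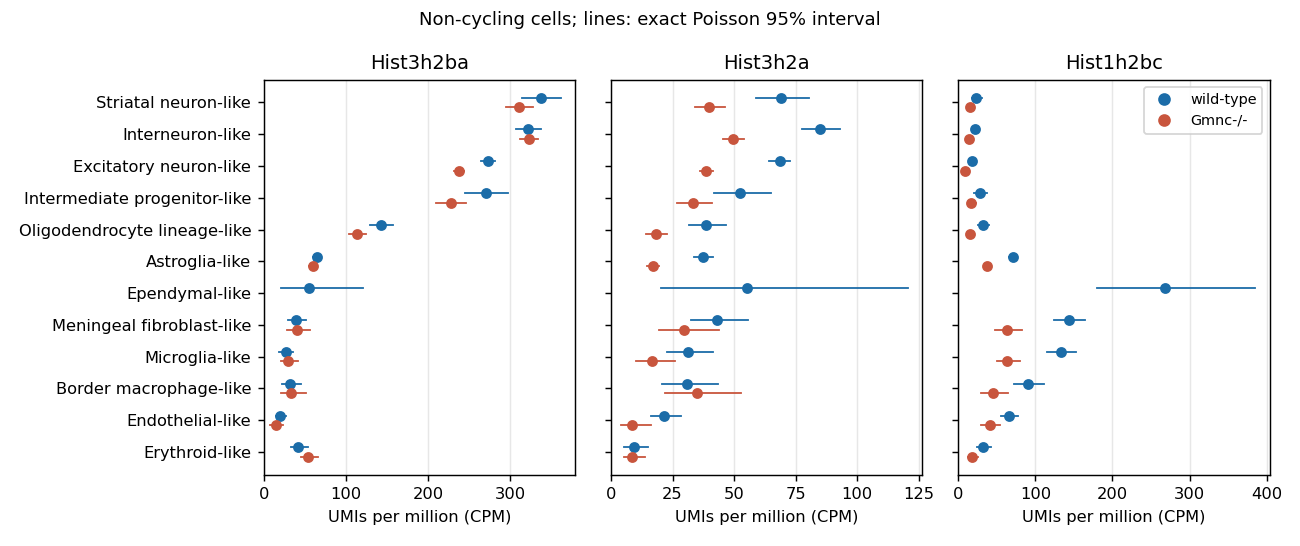
Levels of Hist3h2ba, Hist3h2a and Hist1h2bc in non-cycling cells of 12 classes in CPM, blue for the wild-type and red for the Gmnc-/- library, with exact Poisson 95% intervals as lines. Hist3h2ba is highest in neurons, up to 337 CPM, and Hist1h2bc in ependymal-like, meningeal and myeloid cells.

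Between the libraries the members were lower in Gmnc-/- cells. Over all cells they summed to 1845 CPM (1836 to 1855) in wild-type and 1162 CPM (1156 to 1169) in Gmnc-/- cells, a ratio of 0.630 (0.625 to 0.635). The ratio was 0.661 in cycling and 0.745 in non-cycling cells, and 0.637 (0.628 to 0.647) in cycling cells of the astroglia-like and intermediate progenitor-like classes. By type it was 0.676 for H1, 0.405 for H2A, 0.859 for H2B, 0.719 for H3 and 0.677 for H4. Of 63 measured members 5 were at least 2-fold lower, against 1% of all genes, and none was 2-fold higher, against 0.125%. By any amount 58 of 63 were lower, where 48.4% of all genes were (and 51.6% higher), with a median log2 difference of -0.25 for members and 0.00 for all genes. In cycling cells 5 of 63 members were at least 2-fold lower, against a background of 1.91%, and 0 were 2-fold higher, against 0.253%. There Hist1h3f took the place of Hist1h2bc, and 55 members were lower by any amount, where 46.7% of all genes were lower and 53.3% higher. In non-cycling cells 2 of 61 members, Hist1h2ap and Hist1h2bc, were at least 2-fold lower, against 0.644% of all genes, and 0 were 2-fold higher, against 0.0987%. By any amount 51 of the 61 were lower there, where 46.3% of all genes were lower and 53.7% higher. The 2 libraries differ in more than genotype (depth, doublet rate and mitochondrial share, medians of 3.07% and 1.18%), and these cannot be told apart here. The mix of sexes differed too. Cells with a female and a male expression pattern numbered 7135 and 1595 in the wild-type and 9276 and 5233 in the Gmnc-/- library. Within these patterns the summed ratio over all cells was 0.664 and 0.625.

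Genes with a short span moved the same way. Members left out, and with a floor of 20 CPM that a gene had to reach in at least 1 library, 81.6% of the 348 genes that span up to 3000 bases were lower in the Gmnc-/- library (median log2 -0.33), against 19.7% of the 4331 genes over 30000 bases (median 0.24). At the same floor 14 of 16 members (87.5%) were lower, with a median log2 of -0.58. At least 2-fold lower were 5 of these 16 (31.25%), against 9.2% of the genes that span up to 3000 bases. The part of span in the members' difference was not tested.

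The 5 members were Hist1h2ap, Hist1h2ab, Hist1h2ae, Hist1h4h and Hist1h2bc. Hist1h2ap, 1 of the members with 12 A before the stem-loop, was at 188 and 35.4 CPM over all cells. That is a ratio of 0.188 (0.182 to 0.195) and a log2 difference of -2.26. In cycling cells its ratio had an interval below 1 in each of the 12 named classes that had such cells in both libraries, from 0.0748 in mural-like cells (52 and 1 UMIs) to 0.241 in intermediate progenitor-like cells (935 and 250 UMIs). It was also there in non-cycling neurons, at 17.1 against 3.17 CPM in excitatory neuron-like cells. Hist1h2ao, which has the same run, had 30 and 6 UMIs. Hist1h2ab went from 47.4 to 16.5 CPM (0.347), Hist1h2ae from 171 to 68.9 CPM (0.402), Hist1h4h from 47.3 to 18.8 CPM (0.398) and Hist1h2bc from 54.2 to 24.5 CPM (0.451). Hist1h2bc was at a log2 difference of -1.01, just past the limit, and short of it at -0.97 with the looser cell filter and at -0.80 in cells with a male expression pattern. On this scale Hist1h3f at -0.88 and Hist1h3e at -0.85 came closest without passing it. The 5 CPM added shrinks the log2 difference of members at a low level. As a plain ratio Hist1h3f was at 0.347, as low as Hist1h2ab. Some members at a few CPM had lower plain ratios, among them Hist1h4n at 0.225 and Hist1h4m at 0.237. Without the 5 members the summed ratio was 0.747 (0.740 to 0.753), and without Hist1h2ap alone the H2A ratio was 0.521.

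Against this trend Hist1h3c was at 20.8 CPM in wild-type and 29.0 CPM in Gmnc-/- cells, a ratio of 1.39 (1.31 to 1.48). In cycling cells it was higher in the Gmnc-/- library in astroglia-like (59.9 and 95.5 CPM), intermediate progenitor-like (63.2 and 135 CPM) and interneuron-like cells (101 and 130 CPM), and lower in oligodendrocyte lineage-like cells (36.8 and 16.4 CPM). It was higher in both sex patterns, with ratios of 1.51 in female-pattern and 1.64 in male-pattern cells. Hist3h2ba was the other member whose interval lay above 1, at 159 and 173 CPM (1.09, 1.06 to 1.11), and it was lower in non-cycling excitatory neuron-like cells (0.871, 0.836 to 0.907). Hist3h2a, its neighbour, was at 0.636 over all cells and at 0.564 in non-cycling excitatory neuron-like cells, so the pair did not move together between the libraries.

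**Figure D5:**
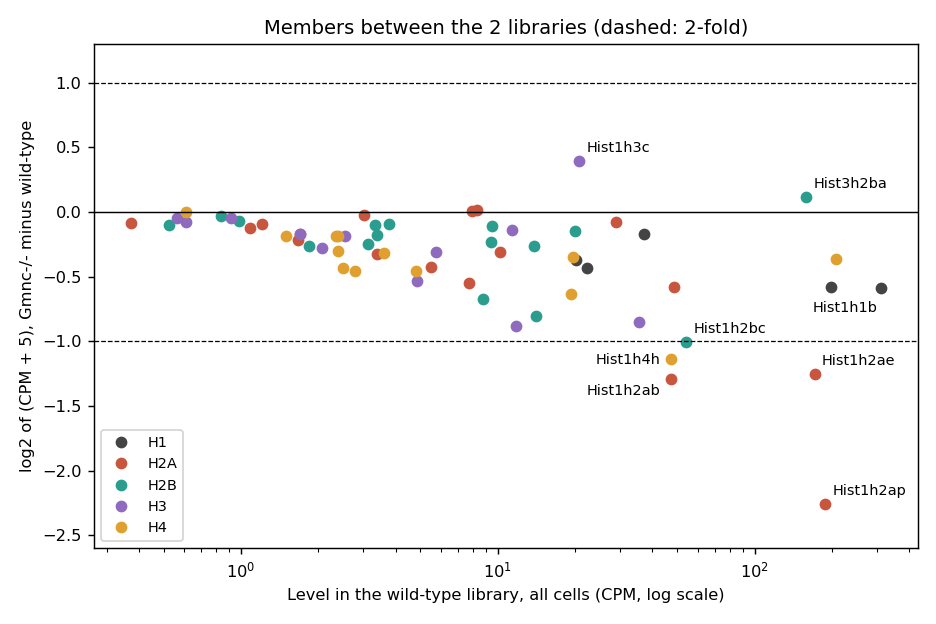
Difference between the libraries for the 63 measured members over all cells (y axis, log2 of CPM plus 5, Gmnc-/- minus wild-type) against the level in the wild-type library (x axis, log scale), coloured by histone type, with dashed lines at 2-fold. Most points lie under 0, 5 lie under the lower dashed line with Hist1h2ap lowest at -2.26, and Hist1h3c is highest at 0.40.

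The difference varied between classes. In cycling cells the summed ratio was 0.610 in astroglia-like, 0.763 in intermediate progenitor-like and 0.594 in interneuron-like cells, and 0.369 in oligodendrocyte lineage-like cells. It was nearer to 1 in endothelial-like cells, at 0.830 (0.760 to 0.907), and in erythroid-like cells, at 0.916 with an interval that holds 1 (0.799 to 1.05). Oligodendrocyte lineage-like cells formed 2 clusters. The one with the higher summed members in the wild-type library had 1709 CPM, and 660 CPM in the Gmnc-/- library. Its mitosis list stood at 1173 and 635 CPM. Border macrophage-like cells had a ratio of 0.276 in cycling cells, with the mitosis list over all cells of the class at 1458 and 507 CPM. The part of these list levels in the differences was not tested. In non-cycling cells the ratio was between 0.717 and 0.738 in the astroglia-like, intermediate progenitor-like, interneuron-like and oligodendrocyte lineage-like classes, and 0.721 in excitatory neuron-like cells. In cycling cells as a whole the replication list was at 1540 and 1579 CPM, the mitosis list at 3444 and 3353 CPM and Mki67 at 340 and 598 CPM, so both lists lay closer together between the libraries than the members did.

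Other genes of the pathway were read from lists. Of 11 replacement histone genes 5 were at least 2-fold higher in cycling cells of both libraries: Cenpa, the centromeric H3, from 11.4 to 278 CPM in the wild-type library, H2afx from 34.3 to 349 CPM, H2afz from 637 to 2815 CPM, H1fx from 121 to 414 CPM and H2afv from 316 to 920 CPM. H3f3a and H3f3b, which encode H3.3, had 2135 against 1829 CPM and 2530 against 2148 CPM and did not pass. Of 11 factors that act on histone pre-mRNA only Slbp passed 2-fold, with 122 CPM in cycling and 43.1 in non-cycling wild-type cells and 115 against 40.3 CPM in the Gmnc-/- library; Npat had 46.4 against 32.8 CPM. Of 15 histone chaperone genes 6 passed in wild-type and 5 in Gmnc-/- cells, among them Asf1b (27.5 against 1.36 CPM), Chaf1a and Chaf1b of the CAF-1 complex, and Nasp (466 against 175 CPM). Of the 21 replication genes 20 and 19 passed, and all 17 mitosis genes did in both.

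Between the libraries none of the replacement histones, pre-mRNA factors, chaperones or replication genes was 2-fold lower, and of the mitosis genes only Cdk1 was (log2 -1.28). Of the replacement histones 9 of 11 were lower by any amount, with a median of -0.31 and H3f3a lowest at -0.76. The pre-mRNA factors had a median of 0.17, with 2 of 11 lower, Slbp at -0.15 and Npat at 0.32. Chaperones had a median of 0.12, replication genes 0.03 and mitosis genes -0.18.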

How the data were processed

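Dissociated forebrain cells were run as 2 droplet libraries, 1 per genotype (3-prime chemistry version 3.1, per the labels' protocols). The deposited files hold raw UMI counts for every gene and barcode. Per the submitters' processing notes the tool was Cell Ranger 7.1.0 and the build mm10, and further settings are not stated in the sources used. Cells with at least 1000 UMIs and under 10% mitochondrial UMIs were kept, and doublets called with Scrublet in scanpy 1.11.5 (expected rate 0.8% per 1000 barcodes) were removed. Cells were clustered (2000 variable genes, 30 components, 15 neighbours, Leiden resolution 1) without the members, and clusters were named from fixed markers, with at least 3 detected; the least marker score for a name was set after seeing the data. Counts were summed per library, class and state and divided by the summed total (CPM). Intervals are exact at 95% (Poisson, conditional binomial for ratios, Clopper-Pearson for shares). No test was made, with 1 library per group. A log2 difference adds 5 CPM to both values. The depth was 79996785 and 101788005 UMIs in the wild-type and Gmnc-/- cells. Stem-loops and gene positions were read from GENCODE M21 (GRCm38, the mm10 sequence); 67 members matched by identifier and 2 by symbol. The sums and intervals were tested on simulated data with 200 genes changed. Members, gene lists and rules were chosen with earlier results of these data known. Members at 20 CPM or more in cycling cells of either library, or past 2-fold, could be named with full values, and other genes only from the lists (replacement histones, pre-mRNA factors, chaperones, replication, mitosis). Sex patterns are from 4 Y-linked genes and Xist. Alternatives were looser and stricter cell filters, doublets kept, other calls of the cycling state, other scaling, and cells of each sex pattern.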

Additional observations from a re-analysis of the deposited data

Results flagged for a closer look

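In the wild-type library, summed members in ependymal-like cells with a Mki67 or Top2a UMI were 0.694 times those in ependymal-like cells without one, while in the other named classes the ratio was between 1.05 in striatal neuron-like and 8.04 in mural-like cells. The difference between the classes was not tested, since each ratio rests on 1 library, and the 15 ependymal-like cells without such a UMI held 102 member UMIs.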

How the results depend on the processing

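No paired analysis was possible because each group has 1 library, whose replicate number only names it. The summed ratio of cycling to non-cycling cells stayed above 4 under every alternative tried. In the wild-type library (5.83) it was 5.74 with doublets kept, 7.42 with the state called after thinning, 6.93 with the state from 2 or more UMIs, 5.12 as a mean over cells, 6.03 in female-pattern and 5.91 in male-pattern cells, 4.86 without Hist1h1b and 5.30 without Hist1h2ap. In the Gmnc-/- library (5.17) the same order gave 4.71, 6.60, 7.01, 4.67, 5.83, 4.795, 4.16 and 5.02. Looser and stricter cell filters kept both within their intervals. The ratio of the Gmnc-/- to the wild-type library over all cells (0.630) was 0.661 with the looser and 0.598 with the stricter filter, 0.659 with doublets kept, 0.640 in cells of 2000 or more UMIs, 0.664 in female-pattern cells, 0.624 without Hist1h1b, 0.680 without Hist1h2ap and 0.579 after median-of-ratios scaling. In cycling cells of the astroglia-like and intermediate progenitor-like classes (0.637) it was 0.650 and 0.586 with the looser and stricter filters, 0.599 with doublets kept, 0.675 with the state from 2 or more UMIs, 0.607 as a mean over cells, 0.703 in female-pattern and 0.590 in male-pattern cells, 0.621 without Hist1h1b, 0.702 without Hist1h2ap, 0.571 after median-of-ratios scaling, 0.617 when clustered with the members and 0.600 at resolution 2. Leaving out Hist1h2ap was chosen after seeing the data. With 1 CPM added in place of 5, 52 members (31 with 5) were 2-fold higher in cycling cells of both libraries and 11 (5 with 5) were 2-fold lower in the Gmnc-/- library; no other alternative moved these counts past 1.5 times, and none made a member 2-fold higher in the Gmnc-/- library. No result reversed; the cause of each shift was not tested. Depth is a limit where few UMIs were counted, as in the cycling mural-like cells of the Gmnc-/- library (12 member UMIs).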
